A study of Mus musculus with 8 samples.

Results

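Transcripts of 9 genes that mark bile duct epithelium, the ductular reaction or biliary progenitor cells were examined in mouse livers lacking *Usp39*, a component of the spliceosome, in hepatocytes. The 9 genes were chosen by symbol from the 55385 genes of the deposited count table. They are the transcription factors *Sox9* and *Sox4*, the surface proteins *Epcam*, *Cd24a* and *Prom1*, the keratins *Krt19* and *Krt7*, the chloride channel *Cftr* and the secreted protein *Spp1*. Each of the 9 had counts in all 8 livers.

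RNA from whole liver was sequenced in 4 *Usp39*-HKO male mice (A469, A470, A471 and A474) and 4 control male littermates (A468, A472, A473 and A475), 1 library per mouse. All mice were 5 weeks old, on a C57BL/6J background, and had been fasted for 16 h. *Usp39*-HKO mice came from a cross of *Usp39* fl/fl mice, in which *loxP* sites flank exon 2, to mice expressing Cre from the albumin promoter, which is active in hepatocytes. The labels give the controls as WT, and whether they carried the floxed allele or Cre was not stated in the sources used here. The deletion is thus meant for 1 cell type of the organ, and the RNA of the other liver cells was in every library. Whether any of those other cells, bile duct cells included, also carried the deletion was not tested.

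Bile ducts are lined by cholangiocytes, epithelial cells that share an embryonic origin with hepatocytes, the hepatoblast. They are joined by tight junctions, carry a primary cilium and move chloride, bicarbonate and water into bile. In many kinds of liver injury, cells with biliary markers increase around the portal tracts, a change called the ductular reaction, and hepatocytes under stress can themselves make some of the same transcripts, such as *Sox9* and *Spp1*. In bulk liver RNA, a larger number of cells of a type and more RNA per cell cannot be told apart.

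Read counts assigned to genes summed to between 8589636 and 10418450 in control livers and to between 9479922 and 10195028 in *Usp39*-HKO livers. *Usp39* itself was 9.58 ± 0.706 FPKM (counts scaled to exon length and library total, SD, n = 4) in controls and 8.44 ± 0.286 FPKM (SD, n = 4) in *Usp39*-HKO livers, with every *Usp39*-HKO liver below every control. Its log2 fold change was −0.41 (SE 0.12, adjusted p = 0.0215 in edgeR's quasi-likelihood test), but was −0.18 (adjusted p = 0.262) when libraries were scaled by total count alone. Without control A475 its adjusted p was 0.056, and without A474 it was 0.0647. Only exon 2 is removed by design, so the count over the whole gene checks the labels in part. Control liver A475 stood apart from the other controls in that it held transcripts of pancreatic acinar cells, with a summed level of 620 FPKM against at most 0.753 FPKM in the other controls. Hepatocyte markers were abundant in every liver, at a summed 14646 to 20330 FPKM.

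Upstream sequence was available for 6 of the 9 genes in the promoter table of RefSeq (GRCm38.p6), which gives 250 bases before a transcription start. Those of *Spp1*, *Sox4*, *Epcam*, *Prom1* and *Cftr* are shown, since these genes differed between genotypes and the exon-free stretch spans most of the window. Each is written 5′ to 3′ along the gene's strand, with matches in capitals. *Spp1* is at chr5:104434861-104435110 on the plus strand, *Sox4* at chr13:28953714-28953949 on the minus strand, *Epcam* at chr17:87635729-87635978 on the plus strand, *Prom1* at chr5:44094769-44095018 on the minus strand, before a start site inside the gene, and *Cftr* at chr6:18170437-18170686 on the plus strand.
Spp1: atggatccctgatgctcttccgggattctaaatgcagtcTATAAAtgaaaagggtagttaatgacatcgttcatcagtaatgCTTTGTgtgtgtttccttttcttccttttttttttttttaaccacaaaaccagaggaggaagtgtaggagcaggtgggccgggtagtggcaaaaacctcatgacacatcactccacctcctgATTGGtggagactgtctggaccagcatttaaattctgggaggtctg
Sox4: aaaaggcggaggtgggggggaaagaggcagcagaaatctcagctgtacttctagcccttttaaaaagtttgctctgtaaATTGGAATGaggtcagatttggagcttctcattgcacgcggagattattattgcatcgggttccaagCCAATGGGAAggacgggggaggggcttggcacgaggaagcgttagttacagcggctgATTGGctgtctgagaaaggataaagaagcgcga
Epcam: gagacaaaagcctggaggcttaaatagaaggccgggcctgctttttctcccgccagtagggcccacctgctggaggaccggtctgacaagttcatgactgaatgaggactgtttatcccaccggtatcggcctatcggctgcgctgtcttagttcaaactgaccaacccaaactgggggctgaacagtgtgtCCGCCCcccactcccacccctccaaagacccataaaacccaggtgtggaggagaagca
Prom1: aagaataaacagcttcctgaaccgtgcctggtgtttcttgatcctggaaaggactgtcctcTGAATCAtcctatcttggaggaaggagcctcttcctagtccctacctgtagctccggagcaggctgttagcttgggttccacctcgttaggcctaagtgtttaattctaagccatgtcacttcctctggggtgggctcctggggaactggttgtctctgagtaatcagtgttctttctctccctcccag
Cftr: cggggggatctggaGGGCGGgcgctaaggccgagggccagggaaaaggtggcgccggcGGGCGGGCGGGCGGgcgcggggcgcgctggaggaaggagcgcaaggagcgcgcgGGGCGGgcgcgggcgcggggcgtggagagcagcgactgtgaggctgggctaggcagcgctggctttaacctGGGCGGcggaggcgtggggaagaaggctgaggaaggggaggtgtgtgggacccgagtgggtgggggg

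The letters searched, on both strands, were TGGGAA for RBPJ, the factor of the Notch pathway, and GGAATG for TEAD, the partner of YAP. For AP-1 they were TGANTCA and for SOX factors ACAANG. The CCAAT box is named by its letters, the GC box was read as GGGCGG and the TATA box as TATAAA. Counted from the start site, the *Spp1* window held a TATA box match from −211, a SOX match from −168 on the minus strand and a CCAAT match from −46 on the minus strand. The *Sox4* window held a TEAD match from −168 that shared bases with a CCAAT match from −171, an RBPJ match from −100 that shared a base with a CCAAT match from −104, and a further CCAAT match from −47. The *Prom1* window held an AP-1 match from −189 that reads as a match on both strands. The *Epcam* window held a single GC box from −58, whereas that of *Cftr* held 6, of which 3 overlapped each other. *Cftr* had 30 CpG dinucleotides in its 250 bases, *Sox4* 11, *Epcam* 8 and *Spp1* and *Prom1* 3 each, and the median over all 32851 promoter windows of the table was 6. Over those windows, 21.6% held the RBPJ letters, 12.6% the TEAD letters, 6.75% the AP-1 letters, 36.3% the SOX letters, 33.8% the CCAAT box, 32.7% the GC box and 12.4% the TATA box. No motif was found in all 5 windows, and a match is given as a description of the sequence, not as a binding site.

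To ask which of the 9 markers differed between genotypes, genes with at least 0.5 FPKM in at least 4 of the 8 livers were compared with edgeR on the raw counts, and p-values were adjusted over all 14340 genes tested. Of the 9 markers, 7 passed this filter and 6 of those passed an adjusted p of 0.05, all of them higher in the knockouts, namely *Spp1*, *Sox4*, *Epcam*, *Krt19*, *Cd24a* and *Prom1*. Over all genes tested, 22.6% passed in either direction and 10.9% were higher by the same rule. *Prom1* reached the filter only through *Usp39*-HKO livers, so its pass depended on the group where it was high. *Sox9* was tested and missed the threshold, and *Krt7* and *Cftr* were too low to be tested. Without control A468, A473 or A475 the number higher was 4, as *Cd24a* and *Prom1* then missed the threshold, and without A469 it was 7. Without A474 and A475 together, the highest *Usp39*-HKO liver and the control with pancreas transcripts, it was 5. Every value of all 4 *Usp39*-HKO livers lay above every control value for 7 of the 9 markers. The same held for 14.8% of the 28412 genes with a count and for 23.9% of the 14340 genes tested. Among the 9 markers, *Sox9* and *Krt7* were the exceptions, each because of liver A469.

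**Figure D1:**
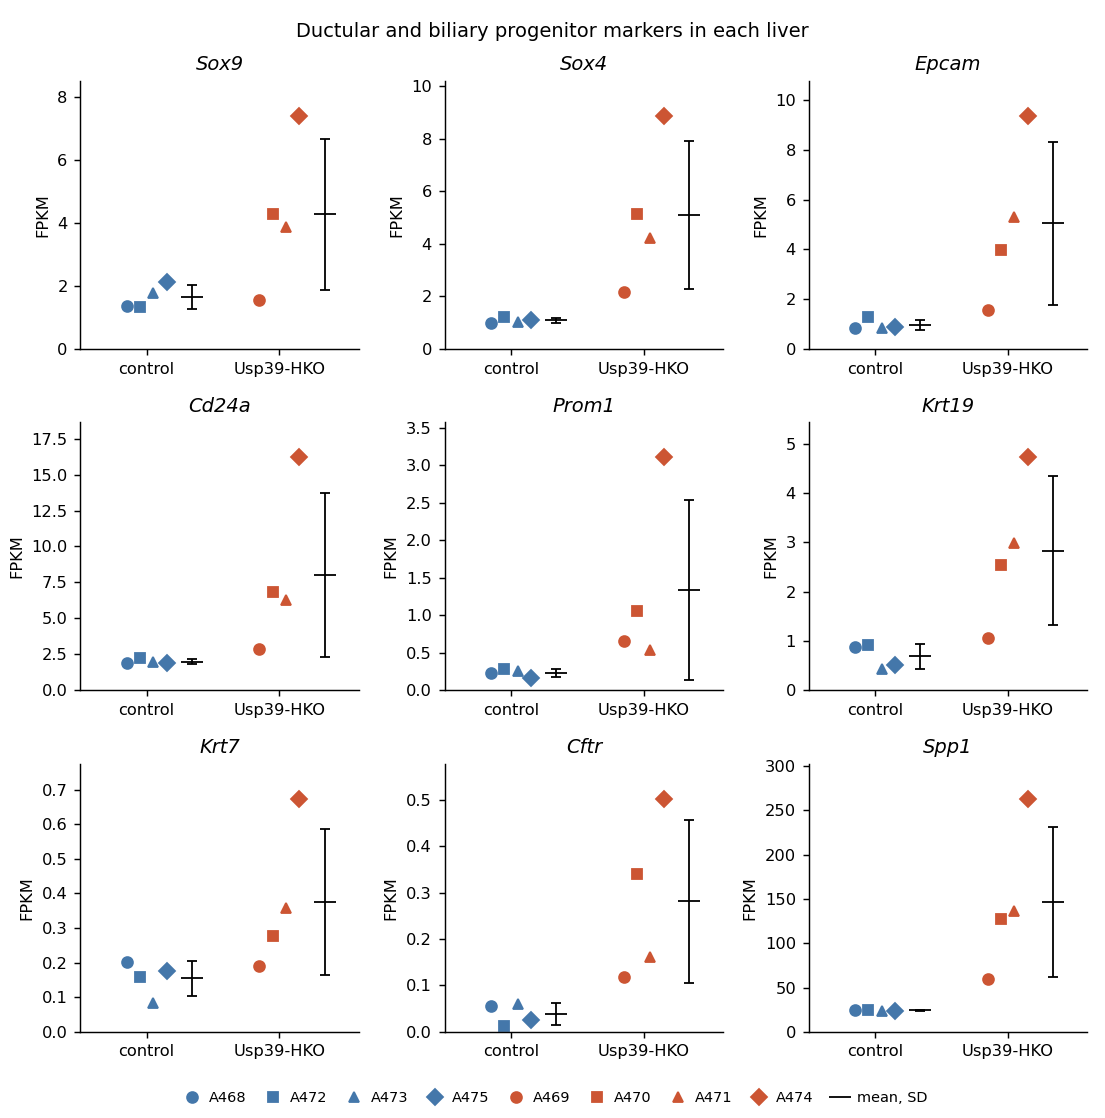
FPKM of the 9 markers in each liver, with 1 panel per gene and a separate axis starting at 0 in each. Points are single livers (blue, 4 controls; orange, 4 *Usp39*-HKO), and the bars beside them are the mean and SD. Liver A474 is the highest in all 9 panels, and only for *Sox9* and *Krt7* does a *Usp39*-HKO liver, A469, lie among the controls.

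*Sox9* and *Sox4* encode SOX family transcription factors that act in bile duct formation. *Sox9* (ENSMUSG00000000567, chr11:112782224-112787760, plus strand) was at 1.37, 1.34, 1.77 and 2.11 FPKM in control livers A468, A472, A473 and A475. It was at 1.54, 4.27, 3.88 and 7.40 FPKM in *Usp39*-HKO livers A469, A470, A471 and A474. Liver A469 was thus within the control range, while the other 3 *Usp39*-HKO livers were above every control. The means were 1.65 ± 0.366 FPKM and 4.27 ± 2.41 FPKM (SD, n = 4 each, two-sided exact permutation test, p = 0.0857). The log2 fold change was 1.10 (SE 0.37) with an adjusted p of 0.0588 in edgeR. DESeq2 gave an adjusted p of 0.009, limma's voom with sample weights 0.0213 and edgeR without A469 0.000633, so whether *Sox9* passes depended on the method and on that liver.

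*Sox4* (ENSMUSG00000076431, chr13:28948919-28953713, minus strand) was at 0.999, 1.20, 1.04 and 1.10 FPKM in controls, in the same order of mice. In *Usp39*-HKO livers it was at 2.17, 5.13, 4.22 and 8.87 FPKM. The groups did not overlap, and the lowest *Usp39*-HKO liver was again A469. Its log2 fold change was 1.96 (SE 0.33, adjusted p = 0.00345 in edgeR), with a two-sided exact permutation p of 0.0286, the smallest that 4 mice against 4 allow. The annotated gene *Gm26735* lies on the opposite strand over 54.56% of the exon bases of *Sox4*, and the strand setting of the counting was not stated in the sources used here. The counts of *Sox4* may therefore hold reads of that gene, which was not analysed here.

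Other SOX genes were counted beside them. Of 17 further *Sox* genes in the table, 7 were tested, none was higher and 2 were lower. *Sox5* was at 2.08 ± 0.162 FPKM in controls and 1.72 ± 0.209 FPKM in *Usp39*-HKO livers (log2 fold change −0.51, SE 0.11, adjusted p = 0.0071 in edgeR). *Sox6* was at 2.14 ± 0.367 and 1.70 ± 0.124 FPKM (−0.57, SE 0.14, adjusted p = 0.0107). Neither of those calls was made with total-count scaling or in limma on FPKM. *Sox18*, a factor of endothelial cells and the most abundant of the list, was at 5.28 and 6.82 FPKM on average (log2 fold change 0.13, SE 0.19, adjusted p = 0.679). Another 5 *Sox* genes had no count in any liver.

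*Epcam*, *Cd24a* and *Prom1* encode surface proteins by which ductal and progenitor cells are often sorted. *Epcam* (ENSMUSG00000045394, chr17:87635979-87651129, plus strand), an epithelial adhesion molecule, was at 0.844, 1.29, 0.849 and 0.875 FPKM in control livers. It was at 1.55, 3.98, 5.30 and 9.37 FPKM in *Usp39*-HKO livers. All 4 *Usp39*-HKO livers were above every control, although A469 exceeded the highest control, A472, by little. In edgeR the difference on the log2 scale was 2.11 (SE 0.45, adjusted p = 0.00893). The ratio of the highest to the lowest *Usp39*-HKO liver was 6.06, the widest of the 9 markers.

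*Cd24a* (ENSMUSG00000047139, chr10:43578284-43584265, plus strand), a small glycoprotein anchored to the membrane, was at 1.90, 2.27, 1.94 and 1.90 FPKM in controls. In *Usp39*-HKO livers it was at 2.87, 6.84, 6.26 and 16.2 FPKM. The groups did not overlap, and liver A474 was far above the other 3. *Cd24a* had a log2 fold change of 1.73 (SE 0.43, adjusted p = 0.0224 in edgeR). The call was lost without control A468 (adjusted p = 0.0634), A473 (0.0681) or A475 (0.0658) and without the filter on low values (0.0749).

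*Prom1* (ENSMUSG00000029086, chr5:43993620-44102032, minus strand) encodes prominin-1, or CD133, a protein of membrane protrusions. It was at 0.228, 0.281, 0.260 and 0.161 FPKM in controls and at 0.660, 1.05, 0.540 and 3.10 FPKM in *Usp39*-HKO livers. Here A471, not A469, was the lowest of the *Usp39*-HKO livers, and the groups did not overlap. The log2 fold change was 2.24 (SE 0.55, adjusted p = 0.0193 in edgeR), and the SE was the largest of the 7 markers tested. Its adjusted p was 0.0563 without A468, 0.0568 without A473 and 0.0614 without A475, 0.0579 in limma on log2(FPKM + 1) and 0.0677 without the filter on low values. *Prom1* shares stretches of at least 150 bases at 97% identity or more with 5 other annotated genes, the longest of 312 bases, so some of its reads may have been assigned elsewhere or left out.

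*Krt19* and *Krt7* encode keratins of simple ductal epithelium that hepatocytes make little of. *Krt19* (ENSMUSG00000020911, chr11:100140810-100148665, minus strand) was at 0.881, 0.924, 0.439 and 0.517 FPKM in controls and at 1.05, 2.54, 2.99 and 4.72 FPKM in *Usp39*-HKO livers. The groups did not overlap, but A469 was close to control A472. On the log2 scale the difference was 1.76 (SE 0.40, adjusted p = 0.00827 in edgeR). *Krt19* passed in each fit that left out 1 liver and missed the threshold only without A474 and A475 together (adjusted p = 0.0855).

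*Krt7* (ENSMUSG00000023039, chr15:101411043-101430313, plus strand) was scarce, with 13, 11, 5 and 13 counts in controls and 13, 20, 24 and 45 counts in *Usp39*-HKO livers. These amount to 0.201, 0.157, 0.0826 and 0.177 FPKM in controls and to 0.190, 0.278, 0.357 and 0.673 FPKM in *Usp39*-HKO livers. Liver A469 lay inside the control range and the other 3 lay above it (two-sided exact permutation test, p = 0.0571, n = 4 each). Summed over livers and scaled to the totals, its counts were 2.38 times those of controls, with an exact 95% interval of 1.64 to 3.49 that covers counting error only. In a fit of all genes without the filter its log2 fold change was 0.96 (SE 0.37, adjusted p = 0.0616 in edgeR).

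Keratins that hepatocytes also make were far more abundant than *Krt19* and *Krt7*. *Krt18*, the most abundant, was at 159 ± 8.06 FPKM in controls and 215 ± 30.6 FPKM in *Usp39*-HKO livers. Relative to the median gene this was a log2 fold change of 0.20 (SE 0.12, adjusted p = 0.246 in edgeR), and *Krt18* passed only where libraries were not rescaled by TMM, with total counts or in limma on FPKM. The other tested keratins of the list, *Krt8* (0.44, SE 0.15, adjusted p = 0.0584) and *Krt23* (1.26, SE 0.58, adjusted p = 0.172), missed the threshold as well. *Krt8* passed in 8 of 19 alternatives, with other scalings and filters, voom, limma on FPKM and without A469, and *Krt23* passed without A469 alone. The median log2 fold change of the 3 was 0.44 against 0.00 over all genes tested. In FPKM, which are not rescaled by TMM, 3 of the 5 listed keratins had all 4 *Usp39*-HKO livers above every control. They were *Krt18*, *Krt8* and the untested *Krt20*, which was at 0 in controls and at most 1.26 FPKM in *Usp39*-HKO livers. The same held for 14.8% of genes with a count.

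*Cftr* and *Spp1* stand for what biliary cells secrete. *Cftr* (ENSMUSG00000041301, chr6:18170687-18322768, plus strand), the chloride channel of the apical membrane, had 4, 1, 4 and 2 counts in control livers. It had 9, 27, 12 and 37 counts in *Usp39*-HKO livers. The counts in all 4 *Usp39*-HKO livers thus exceeded those in every control, although all are low. In FPKM, controls were at 0.0561, 0.0130, 0.0600 and 0.0247 and *Usp39*-HKO livers at 0.119, 0.341, 0.162 and 0.503 (two-sided exact permutation test, p = 0.0286, n = 4 each). The summed counts were 7.56 times those of controls (exact 95% interval 4.02 to 15.7, counting error only). In the fit without a filter the log2 fold change was 2.56 (SE 0.49, adjusted p = 1.37e-05 in edgeR), and 6.73% of all genes in that fit were called higher. DESeq2 gave 2.61 with a larger adjusted p of 0.00113, so the size of the p-value depended on the method at these counts.

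*Spp1* (ENSMUSG00000029304, chr5:104435118-104441050, plus strand) encodes osteopontin, a secreted phosphoprotein of cholangiocytes that macrophages, stellate cells and injured hepatocytes can also make. It was at 24.98, 24.97, 23.2 and 23.7 FPKM in control livers, the narrowest spread of the 9 markers relative to the mean. In *Usp39*-HKO livers it was at 59.8, 127.8, 136 and 263 FPKM. The groups were far apart, and A469 was again the lowest of the *Usp39*-HKO livers and A474 the highest. The log2 fold change was 2.32 (SE 0.36, adjusted p = 0.00413 in edgeR), and the call held in all 19 alternative settings. The predicted gene *Gm42793* covers 18.75% of its exon bases on the same strand and had at most 1 count in controls and 11 in *Usp39*-HKO livers.

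Receptors of osteopontin were examined alongside. Of 7 listed receptor genes, all tested, 1 was higher and none lower, a share near the 10.9% of all genes tested. *Cd44*, a hyaluronan receptor that also binds osteopontin, was at 4.11 ± 0.316 FPKM in controls and 8.20 ± 2.95 FPKM in *Usp39*-HKO livers (log2 fold change 0.74, SE 0.17, adjusted p = 0.00973 in edgeR). *Itgb1*, the integrin chain with the highest level at 69.1 and 85.0 FPKM on average, had a log2 fold change of 0.06 (SE 0.11, adjusted p = 0.763).

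The order of the levels was compared per exon length. In controls *Spp1* was the highest at a mean of 24.2 FPKM, followed by *Cd24a* at 2.001, *Sox9* at 1.65, *Sox4* at 1.09, *Epcam* at 0.963, *Krt19* at 0.690, *Prom1* at 0.232, *Krt7* at 0.154 and *Cftr* at 0.0384. Neighbours in this order overlapped in range for *Cd24a* and *Sox9*, for *Sox4* and *Epcam*, for *Epcam* and *Krt19* and for *Prom1* and *Krt7*. In *Usp39*-HKO livers *Spp1*, at a mean of 147 FPKM, was again apart from the rest, and every other pair of neighbours overlapped. There *Sox9* came at 4.27 FPKM, after *Cd24a* at 8.04, *Sox4* at 5.10 and *Epcam* at 5.05. Both genes of a pair were measured in the same livers, so the order was also read within each liver. In 4 of 4 *Usp39*-HKO livers *Cd24a* was above *Sox4*, *Sox9* above *Krt19*, *Krt19* above *Prom1* and *Prom1* above *Krt7*. *Epcam* was above *Sox9* and *Krt7* above *Cftr* in 3 of them, and *Sox4* above *Epcam* in 2. In controls the first gene of each overlapping pair was the higher in 3 of 4 livers.

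The size of the difference varied widely between *Usp39*-HKO livers. In A469 the 9 markers were between 0.935 (*Sox9*) and 3.10 (*Cftr*) times their control means, with a median of 1.61. The medians were 4.13 in A470 and 3.88 in A471. In A474 the markers were between 4.36 (*Krt7*) and 13.4 (*Prom1*) times the control mean, with a median of 8.16. A474 was the highest *Usp39*-HKO liver for 9 of 9 markers, a place it held for 45.66% of all tested genes and for 76.81% of the 1565 genes called higher. A469 was the lowest for 8 of 9 markers, and for 41.12% and 54.89% of those genes. The same liver was thus highest in FPKM for most genes that were higher in *Usp39*-HKO mice, within and outside the 9 markers. These folds and ranks use FPKM, which are not rescaled by TMM. The TMM factor was largest in A474, at 1.186 against 0.912 to 0.940 in controls, so its folds are smaller in TMM-scaled counts. In those counts A474 was still the highest *Usp39*-HKO liver for 9 of 9 markers. The shares over all genes were not recomputed.

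**Figure D2:**
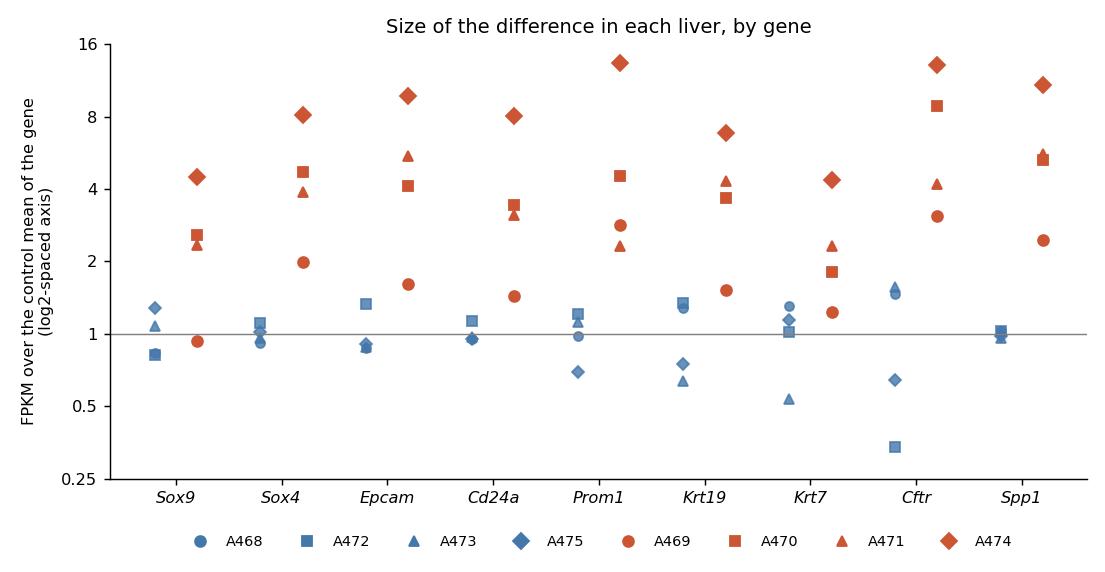
FPKM of each marker in each liver divided by the mean of the gene over the 4 control livers, on a log2-spaced axis, so that 1 is the control mean. Blue points are control livers and orange points *Usp39*-HKO livers. Liver A474 (orange diamonds) lies between 4.36 and 13.4 and liver A469 (orange circles) between 0.935 and 3.10. The FPKM are not rescaled by TMM.

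Among the 7 tested markers, likeness of pattern was measured as the root mean square difference of log2 CPM (counts scaled to the TMM-adjusted library total), each centred on its own mean, over the 8 livers. *Sox4* and *Cd24a* were the closest pair at 0.21, followed by *Spp1* and *Sox4* at 0.22, and *Sox9* and *Prom1* were the farthest apart at 0.73. Of all 14339 other tested genes, the nearest to *Sox4* was *Scara3* (0.14), which was also the nearest to *Cd24a* (0.18). The nearest to *Spp1* was *Mrc2*, an endocytic collagen receptor (0.15), to *Epcam* it was *Emp1* (0.19) and to *Krt19* the carboxylesterase *Ces2c* (0.17). For *Sox9* it was ENSMUSG00000108486 (0.20) and for *Prom1* the leukocyte receptor gene *Lilr4b* (0.27). These distances describe 8 livers in which the genotypes differ, and a short distance says nothing of the cells that make both transcripts.

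Related genes were then counted by role in 9 lists with 87 genes in the table. Of 60 tested, 21 had risen and 4 had fallen with the deletion, against 10.9% higher and 11.6% lower over all genes tested. Of the 21, *Cldn4* and *Slc5a1* reached the filter only through *Usp39*-HKO livers. The 25 calls became between 18 (without A475) and 30 (without A469) when 1 liver was left out, and 12 without A474 and A475 together.

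**Figure D3:**
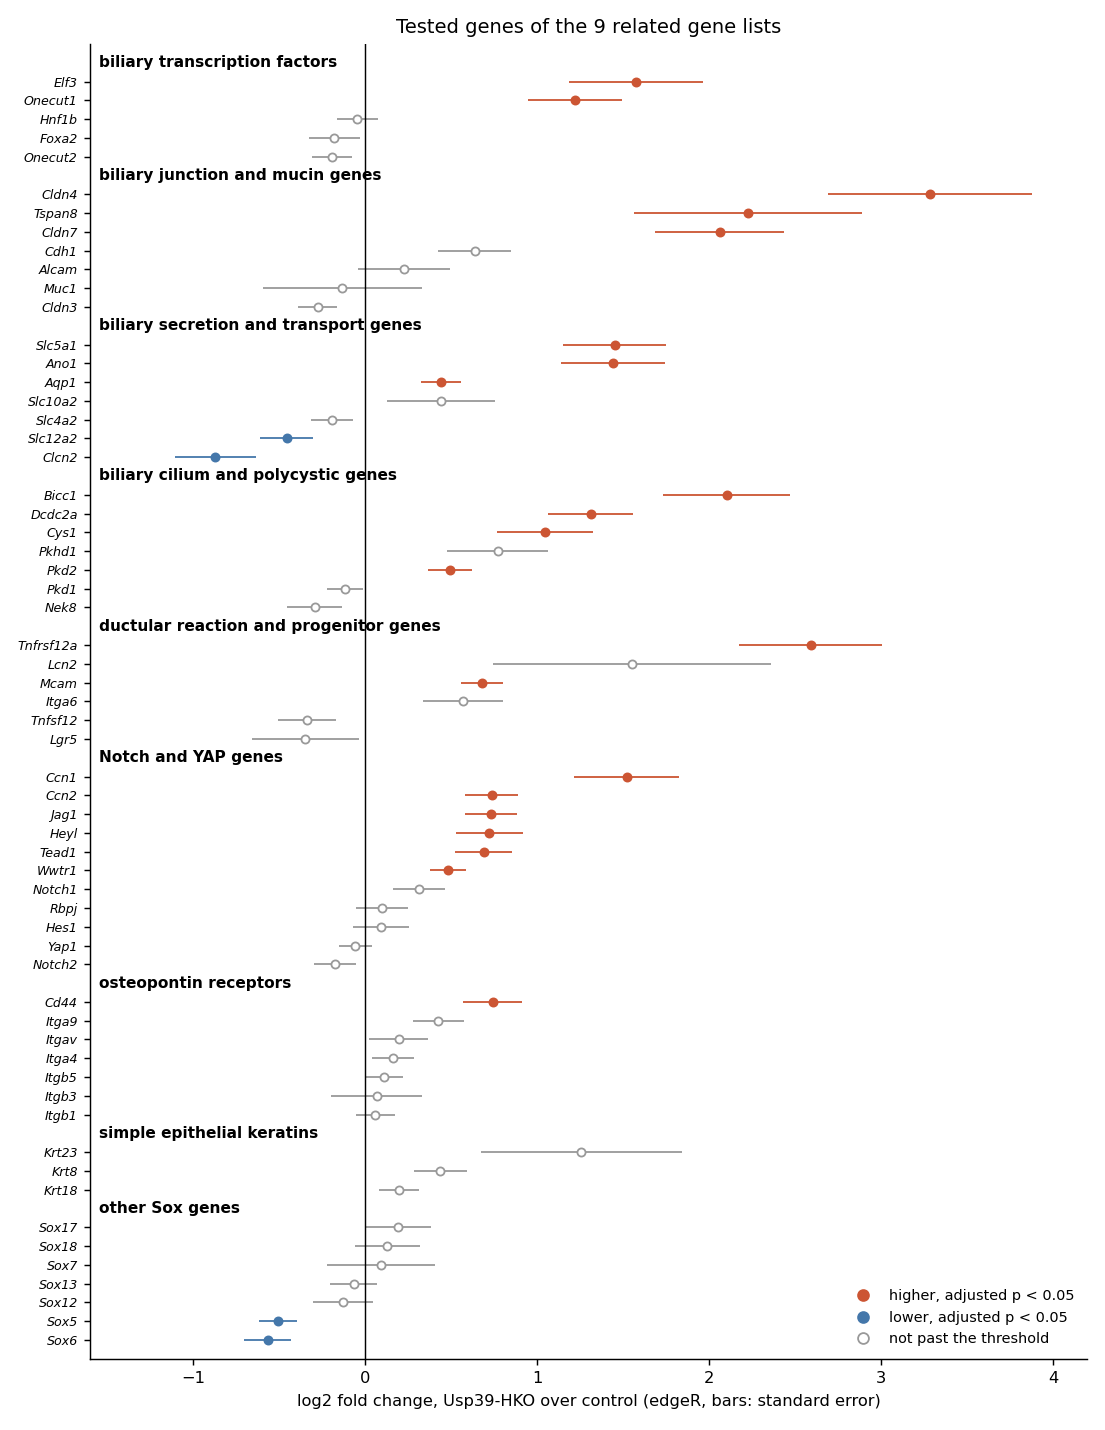
Log2 fold changes of *Usp39*-HKO over control from edgeR for the 60 tested genes of the 9 lists, with bars for the standard error derived from the F statistic. Filled orange points are higher and filled blue points lower at an adjusted p under 0.05, and open grey points did not pass. Most lists hold both filled orange and open grey points, and the lists of keratins and other *Sox* genes hold no orange point.

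Of 5 tested biliary transcription factors, 2 were higher and none lower, with a median log2 fold change of −0.05. *Elf3*, an ETS factor of epithelia, was at 0.348 ± 0.166 FPKM in controls and 1.23 ± 0.463 FPKM in *Usp39*-HKO livers (log2 fold change 1.57, SE 0.39, adjusted p = 0.0123 in edgeR). *Onecut1*, or HNF6, which acts in bile duct development, was at 0.910 ± 0.155 and 2.49 ± 0.954 FPKM (1.22, SE 0.28, adjusted p = 0.00792), and its highest *Usp39*-HKO liver was A469 at 3.75 FPKM. *Onecut2*, the most abundant at 8.82 and 9.13 FPKM on average, had a log2 fold change of −0.19 (SE 0.12, adjusted p = 0.264), and its sign depended on the scaling.

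Of 7 tested genes of biliary junctions and mucins, 3 were higher and none lower (median 0.63). The claudin gene *Cldn4*, of tight junctions, was at 0.180, 0.333, 0.128 and 0 FPKM in controls and at 0.737, 1.51, 2.48 and 2.96 FPKM in *Usp39*-HKO livers (log2 fold change 3.28, SE 0.59, adjusted p = 0.00285 in edgeR). *Cldn7*, another claudin gene, was at 0.451 ± 0.160 and 2.30 ± 1.19 FPKM (2.06, SE 0.37, adjusted p = 0.00261). *Cldn3*, which hepatocytes also make, was at 69.3 ± 4.71 and 67.2 ± 9.15 FPKM (−0.28, SE 0.11, adjusted p = 0.0986). The tetraspanin gene *Tspan8* was at 0.460 ± 0.253 and 2.64 ± 1.96 FPKM (2.23, SE 0.66, adjusted p = 0.0389), and A469, at 0.363 FPKM, lay within the controls. The call of *Tspan8* was lost on leaving out any 1 liver except A469, with an adjusted p of up to 0.109.

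Of 7 tested genes of biliary secretion and transport, 3 were higher and 2 lower (median 0.44). *Aqp1*, the water channel of cholangiocytes and of endothelium, was the most abundant, at 53.0 ± 4.13 FPKM in controls and 84.9 ± 13.2 FPKM in *Usp39*-HKO livers (log2 fold change 0.44, SE 0.12, adjusted p = 0.0174 in edgeR). Without A468, A473 or A475 its adjusted p rose to at most 0.0591. *Ano1*, a chloride channel activated by calcium, was at 0.615 ± 0.0852 and 2.01 ± 1.10 FPKM (1.44, SE 0.30, adjusted p = 0.00632). *Slc5a1*, a sodium and glucose transporter, was at 0.410 ± 0.0488 and 1.35 ± 0.622 FPKM (1.45, SE 0.30, adjusted p = 0.00495). The lower genes were *Clcn2*, a chloride channel (log2 fold change −0.87, SE 0.24, adjusted p = 0.0244), and *Slc12a2*, a sodium, potassium and chloride cotransporter (−0.46, SE 0.15, adjusted p = 0.0479). Neither was called without A468, A470, A471, A473 or A475, and *Clcn2* also not without A474 nor *Slc12a2* without A469. *Slc12a2* was not called with median-ratio, upper-quartile or total-count scaling or in limma on FPKM.

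Of 7 tested genes of the biliary cilium and of polycystic disease, 4 were higher and none lower, with a median of 0.77. *Bicc1*, an RNA-binding protein whose loss gives cystic kidneys, was at 1.22 ± 0.0583 FPKM in controls and at 2.77, 5.71, 4.89 and 11.9 FPKM in *Usp39*-HKO livers (log2 fold change 2.10, SE 0.37, adjusted p = 0.00589 in edgeR). *Dcdc2a*, a protein of microtubules, was at 0.626 ± 0.0637 and 1.87 ± 0.897 FPKM (1.31, SE 0.25, adjusted p = 0.00312). *Pkd2*, or polycystin 2, was at 3.10 ± 0.191 and 5.18 ± 1.26 FPKM (0.49, SE 0.13, adjusted p = 0.0154), with an adjusted p of 0.0562 without A475. *Cys1*, the gene of cystin, was at 0.564 ± 0.125 and 1.40 ± 0.501 FPKM (1.04, SE 0.28, adjusted p = 0.0179), and its call was lost without A473, A474 or A475.

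Of 6 tested genes tied to the ductular reaction and to progenitor cells, 2 were higher and none lower (median 0.62). *Tnfrsf12a*, or Fn14, the receptor for TWEAK, was at 2.71, 8.09, 3.25 and 2.83 FPKM in controls and at 31.4, 17.9, 39.2 and 31.4 FPKM in *Usp39*-HKO livers (log2 fold change 2.59, SE 0.42, adjusted p = 0.00477 in edgeR). *Tnfrsf12a* was lowest in A470 and highest in A471. The adhesion molecule gene *Mcam* was at 4.16 ± 0.413 and 7.87 ± 1.08 FPKM (0.68, SE 0.12, adjusted p = 0.00253). *Lcn2*, a lipocalin of the acute phase, varied most, at 20.6 ± 15.5 and 69.5 ± 57.5 FPKM, with its highest value of 150.6 FPKM in A469 (1.55, SE 0.81, adjusted p = 0.232).

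Of 11 tested Notch and YAP genes, 6 were higher and none lower, with a median of 0.48. *Ccn1* and *Ccn2* encode matricellular proteins that are targets of YAP. *Ccn1* was at 7.67 ± 1.82 FPKM in controls and 26.3 ± 12.6 FPKM in *Usp39*-HKO livers (log2 fold change 1.52, SE 0.30, adjusted p = 0.00869 in edgeR). *Ccn2* was at 11.9 ± 1.49 and 23.5 ± 6.70 FPKM (0.74, SE 0.15, adjusted p = 0.00543). The groups did not overlap for either gene. The other genes called were *Jag1*, a Notch ligand (0.73, SE 0.15, adjusted p = 0.00488), *Heyl*, a Notch target (0.72, SE 0.20, adjusted p = 0.0197), *Tead1* (0.69, SE 0.17, adjusted p = 0.0113) and *Wwtr1*, or TAZ (0.48, SE 0.10, adjusted p = 0.00666). Of these, *Heyl* was lost without A471, A474 or A475. *Hes1*, a Notch target of many cells, had a log2 fold change of 0.09 (SE 0.16, adjusted p = 0.737), while *Yap1* (−0.06) and *Notch2* (−0.18) missed the threshold with signs that depended on the scaling.

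Transcripts of other cells were summed per liver beside those of the markers, since macrophages, stellate cells and pancreatic or intestinal epithelium can hold some of the same transcripts. The 9 markers together summed to between 29.7 and 32.4 FPKM in controls and to 69.9, 152.3, 159.7 and 313.9 FPKM in A469, A470, A471 and A474, most of it from *Spp1*. Over 10 cell type lists, 13 of 45 tested genes were higher and 9 lower, against 10.9% higher and 11.6% lower over all genes tested, and without A474 and A475 together 10 genes were called.

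Macrophage markers summed to between 255 and 305 FPKM in controls and to 431 (A469), 469.4 (A470), 485 (A471) and 670 (A474) FPKM in *Usp39*-HKO livers, and 6 of 7 tested were higher. *Cd5l*, a secreted protein of Kupffer cells, was at 114 ± 13.9 and 226 ± 42.8 FPKM (log2 fold change 0.75, SE 0.13, adjusted p = 0.00256 in edgeR). *Lgals3*, or galectin 3, was at 5.07 ± 0.981 and 14.6 ± 3.95 FPKM (1.28, SE 0.18, adjusted p = 0.000822). The summed macrophage markers and the sum of the 9 markers, most of it *Spp1*, thus ranked the *Usp39*-HKO livers alike. Singly, *Sox9*, *Sox4*, *Cd24a*, *Prom1* and *Cftr* departed from that order, with A470 above A471. The part of macrophages in the marker levels was not tested.

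Stellate cell and fibroblast markers summed to between 68.4 and 80.5 FPKM in controls and to 113, 216, 171 and 248 FPKM in the same *Usp39*-HKO livers, and 7 of 9 tested were higher. *Dcn*, or decorin, was at 41.3 ± 2.67 and 87.5 ± 20.7 FPKM (log2 fold change 0.83, SE 0.14, adjusted p = 0.00153 in edgeR). *Lum*, or lumican, was at 4.25 ± 0.472 and 27.3 ± 16.2 FPKM (2.42, SE 0.49, adjusted p = 0.014). Liver A474 was again the highest and A469 the lowest of the *Usp39*-HKO livers, with A470 above A471. That order was the one of *Sox9*, *Sox4*, *Cd24a* and *Cftr* singly, but not of the other markers or of the sum. The part of these cells in the marker levels was not tested.

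**Figure D4:**
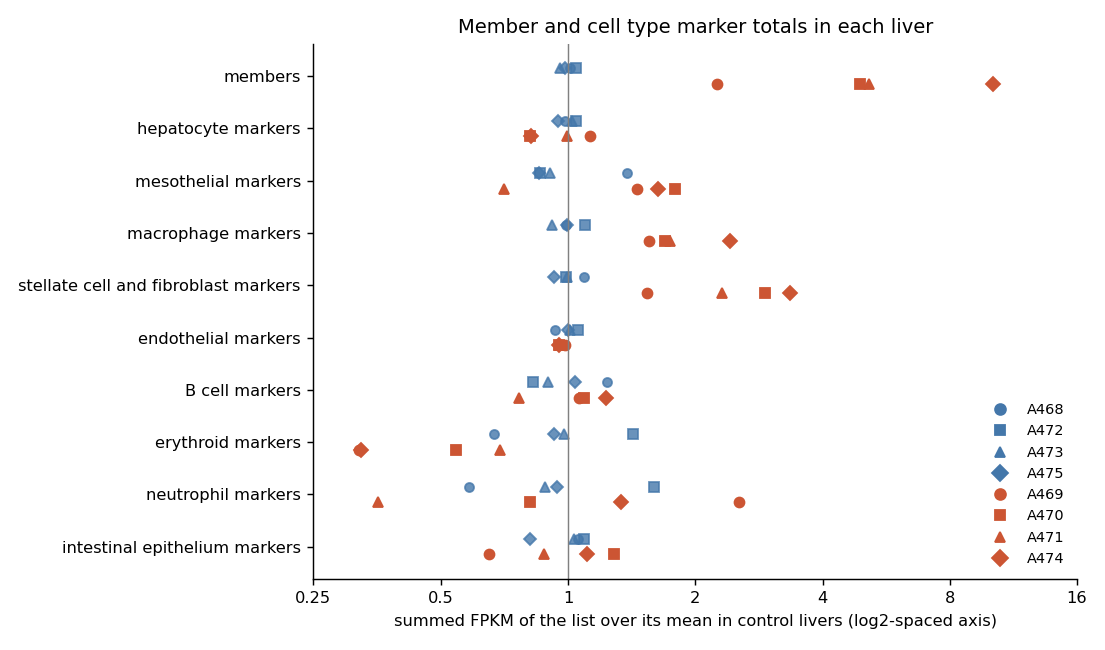
Summed FPKM of the 9 markers (top) and of 9 cell type lists in each liver, divided by the mean of the list over the 4 control livers, on a log2-spaced axis. Blue points are control livers and orange points *Usp39*-HKO livers. The markers, macrophage markers and stellate cell and fibroblast markers are above the control range in all 4 *Usp39*-HKO livers, whereas the hepatocyte markers lie on both sides of 1 (the pancreas list, present in 1 control, is left out).

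Other lists did not follow the markers. Hepatocyte markers summed to between 17060 and 18825 FPKM in controls and to between 14646 and 20330 FPKM in *Usp39*-HKO livers, with none of 8 tested higher and 3 lower. *Alb* was at 7956 ± 533 and 8423 ± 1155 FPKM (log2 fold change −0.14, SE 0.17, adjusted p = 0.59 in edgeR, with a sign that depended on the scaling). *Cyp2e1*, a cytochrome of pericentral hepatocytes, was at 2480 ± 168 and 1781 ± 405 FPKM (−0.70, SE 0.19, adjusted p = 0.0205). Its call was lost without A473, A475 or A470, with an adjusted p of up to 0.0664, and in limma on FPKM. *Cebpa*, a hepatocyte transcription factor, was at 135 ± 13.1 and 98.8 ± 14.3 FPKM (−0.67, SE 0.14, adjusted p = 0.00558), and *Cps1*, of the urea cycle, at 1484 ± 163 and 1250 ± 109 FPKM (−0.48, SE 0.15, adjusted p = 0.0326). The *Cps1* call was lost without A468, A471, A473 or A475. It was also lost with upper-quartile or total-count scaling, in limma on FPKM and among genes averaging 5 FPKM or more.

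Endothelial markers summed to between 82.3 and 93.5 FPKM in controls and between 84.2 and 87.2 FPKM in *Usp39*-HKO livers, with 2 of 6 lower and none higher. *Lyve1*, a receptor of sinusoidal and lymphatic endothelium, was at 23.2 ± 3.72 and 13.5 ± 4.73 FPKM (log2 fold change −0.997, SE 0.28, adjusted p = 0.0337 in edgeR). That call was lost on leaving out any liver except A469 and A474. *Stab2*, a scavenger receptor of the sinusoids, had a log2 fold change of −0.37 (SE 0.12, adjusted p = 0.0444), and lost its call on leaving out any liver except A469. The *Stab2* call was also lost with upper-quartile or total-count scaling, in limma on FPKM and among genes averaging 5 FPKM or more. *Clec4g* was at 21.1 and 25.2 FPKM on average (0.02, SE 0.13, adjusted p = 0.938). *Pecam1* was at 7.65 and 9.70 FPKM on average (0.11, SE 0.09, adjusted p = 0.453). *Vwf* was at 1.55 and 2.50 FPKM (0.45, SE 0.16, adjusted p = 0.057). For both of these genes, all 4 *Usp39*-HKO livers lay above every control. With total-count scaling, 2 endothelial markers were higher and 1 lower. Erythroid markers summed to between 297 and 633 FPKM in controls and between 142 and 306 FPKM in *Usp39*-HKO livers, with 3 of 4 tested lower. *Alas2*, of haem synthesis in red cell precursors, was at 24.0 ± 2.14 and 8.48 ± 4.56 FPKM (−1.72, SE 0.37, adjusted p = 0.015), and *Hbb-bs*, a globin, at 239 ± 79.9 and 118 ± 47.3 FPKM (−1.24, SE 0.34, adjusted p = 0.0359). The *Hbb-bs* call was lost on leaving out any liver except A468 and A471. The alpha globin gene *Hba-a1* was at 178 ± 60.2 and 79.9 ± 29.4 FPKM (−1.38, SE 0.33, adjusted p = 0.0199), with an adjusted p of 0.0531 without A469. Globin genes have close copies among which reads can be split.

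Mesothelial cells share keratins with bile ducts, and their markers overlapped between genotypes, at 2.67 to 4.31 FPKM in controls and 2.21 to 5.60 FPKM in *Usp39*-HKO livers, with none of 3 tested called. *Gpm6a* was the most abundant at 1.02 and 1.88 FPKM on average (log2 fold change 0.64, SE 0.29, adjusted p = 0.141 in edgeR). B cell markers (3.42 to 5.10 and 3.16 to 5.07 FPKM) and neutrophil markers (17.7 to 48.4 and 10.8 to 77.0 FPKM) overlapped too, with none of 3 tested called in each. The log2 fold changes of *Cd79a* and *Cd79b* were −0.48 and 0.04, and those of *S100a8* and *S100a9* were 0.38 and −0.05.

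Pancreas markers, none of which was tested, were at 620 FPKM in control A475, with *Ctrb1* alone at 254 FPKM, and between 1.09 and 2.55 FPKM in *Usp39*-HKO livers. Of the islet transcripts in the list, *Ins1* and *Gcg* were at 0 in every liver, and *Ins2* was at 0.0732 FPKM in A475 and at 0 in the others. Of the 9 markers, A475 was the highest control only for *Sox9*, at 2.11 FPKM. Of the intestinal list, the defining factors *Cdx1* and *Cdx2* were at 0 in every liver. *Vil1*, or villin, of epithelial microvilli, was not tested and was at 0.0307, 0.0852, 0.0656 and 0.108 FPKM in controls and at 0.116, 0.304, 0.207 and 0.743 FPKM in *Usp39*-HKO livers, which did not overlap. A474 was the highest there too, as for the 9 markers, and the part of intestinal epithelium in their levels was not tested. *Fabp2*, which hepatocytes also make, was at 119 FPKM on average in both groups (log2 fold change −0.24, SE 0.20, adjusted p = 0.409 in edgeR), and *Lgals4* was at 15.2 ± 2.28 and 11.8 ± 1.75 FPKM (−0.58, SE 0.16, adjusted p = 0.0177). The *Lgals4* call was lost without A474 (adjusted p = 0.0526) and with total-count scaling.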

How the data were processed

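The authors trimmed reads with Trim Galore 0.6.1, checked them with FastQC 0.11.9, aligned them to mm10 (GRCm38) with HISAT2 and summarized them by gene in featureCounts. The annotation release, strand setting and treatment of shared reads were not given in the sources used here. Deposited were raw counts per gene and liver and FPKM that the authors computed from those counts, the deposited exon length and the total count. The deposited columns of their DESeq2 comparison (a mean normalized signal, log2 fold changes, scores for their error and statistic, and p-values) were not used.

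The 9 markers and all gene lists were chosen with earlier results of these data known. Of 55699 entries, 55385 gene identifiers were kept. Genes with at least 0.5 FPKM in at least 4 of 8 livers (14340) were tested with edgeR 4.0.16 (TMM, robust quasi-likelihood, no covariates), two-sided, with Benjamini-Hochberg adjustment over all genes tested and a threshold of 0.05. The SE given with edgeR is the absolute log2 fold change divided by the square root of the F statistic. The labels give no batch. TMM factors spanned 0.912 to 0.940 among controls and 1.01 to 1.19 among *Usp39*-HKO livers, and log2 fold changes are relative to the median gene. Without that scaling the median gene was 0.2345 higher on the log2 scale. FPKM were compared with exact permutation tests over 70 assignments of mice, whose smallest p is 0.029. P-values set the difference between genotypes against the spread between mice. A floor of 3 counts was 0.288 to 0.349 CPM (counts scaled to the library total), and floors and count intervals cover counting error only. Alternatives used DESeq2 1.42.0, limma 3.58.1, other scalings and filters, and leaving out livers. Only the edgeR fit was tested on simulated data, with counts drawn at a single fixed dispersion.

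Genes named were the 9 markers, *Usp39*, in each related list the 2 called genes with the largest change and the most abundant tested gene, in each cell type list the most abundant gene and the largest change, and the nearest gene in pattern to each tested marker. Outside this rule, *Cldn7*, *Clcn2*, *Slc12a2*, *Cys1*, *Jag1*, *Heyl*, *Tead1*, *Wwtr1*, *Hes1*, *Yap1*, *Notch2*, *Krt8*, *Krt20*, *Krt23*, *Cebpa*, *Cps1*, *Stab2*, *Pecam1*, *Vwf*, *Hba-a1*, *Ins1*, *Ins2*, *Gcg*, *Cdx1*, *Cdx2* and *Vil1* were named after their values were seen. Coordinates are from GENCODE vM21, whose exon lengths equalled the deposited ones for 99.11% of its shared identifiers. Promoters are from RefSeq (GRCm38.p6), and shared sequence was found with BLAST+ 2.17.0.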

Additional observations from a re-analysis of the deposited data

Results flagged for a closer look

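In 14 of 140 groups of 4 livers examined (single genes and list sums, by genotype), 1 liver lay so far from the other 3 that its gap, as a share of the group's range, exceeded Dixon's 95% critical value, which chance does in about 1 of 20 groups. Among the 9 markers this was control A472 for *Cd24a* (2.27 FPKM, others 1.90 to 1.94) and for *Epcam* (1.29 FPKM, others 0.844 to 0.875). A472 was also apart for *Tnfrsf12a* (8.09 FPKM, others 2.71 to 3.25) and, on the low side, for the sum of the simple keratins (238 FPKM, others 258 to 259).

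Control A475 was apart for the pancreas list (620 FPKM, others 0.405 to 0.753), for *Ctrb1* (254 FPKM, others 0 to 0.124) and, on the low side, for *Fabp2* (94.1 FPKM, others 124 to 129). Control A468 was apart for the mesothelial sum (4.31 FPKM, others 2.67 to 2.83) and *Gpm6a* (1.63 FPKM, others 0.784 to 0.866). Control A473 was apart for the Notch and YAP sum (61.1 FPKM, others 68.4 to 69.1) and *Lyve1* (28.8 FPKM, others 20.9 to 21.8).

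Among *Usp39*-HKO livers only A469 met the criterion, in 3 groups. It was low for the sum of biliary secretion and transport genes (79.0 FPKM, others 103.7 to 108), through *Aqp1* (65.2 FPKM, others 89.7 to 93.0), and high for the endothelial sum (87.2 FPKM, others 84.2 to 84.4). The gaps of A474 above the other *Usp39*-HKO livers did not reach it for any of the 9 markers.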

How the results depend on the processing

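For the markers, *Usp39* and the counts of calls, 226 values were recomputed under an alternative. Of these, 200 were classed as the same, none reversed, 17 were weaker, 6 stronger and 3 moved. For a log2 fold change, the same means that direction and side of the threshold were kept. For a count it means only a value within a set ratio of the main one. A fall of the markers called from 6 to 4 was thus still classed as the same. The 7 tested markers kept their direction under every scaling, while *Krt7* and *Cftr* were fitted under fewer settings. Of 71 named and tested genes followed through the alternatives, which leave out *Pecam1* and *Vwf*, 9 changed sign, none of them called (*Onecut2*, *Alb*, *Clec4g*, *Cd79b*, *S100a8*, *S100a9*, *Fabp2*, *Yap1* and *Notch2*). The 6 of 9 markers called became 2 among genes averaging 5 FPKM or more, which left 2 markers to test, and between 4 and 7 with 1 liver left out. Markers without overlap were 7, and between 7 and 9 with 1 liver left out. For *Usp39*, the log2 fold change lay between −0.45 and −0.35 with 1 liver left out. It was −0.18 with total-count scaling (adjusted p = 0.262), −0.16 in limma on log2(FPKM + 1), −0.18 on log2(FPKM + 0.1), and −0.35 without A474 and A475 together, an alternative chosen after seeing the data. At the study's cutoff of an unadjusted p with a minimum fold change, *Usp39* at −0.41 did not pass on size. Without A474 and A475, 12 of the related genes and 10 of the cell type markers were called, against 25 and 22, with ranges of 18 to 30 and 15 to 26 with 1 liver left out. With total-count scaling 83.45% of all calls were higher, 82.63% in limma on log2(FPKM + 1) and 60.92% with upper-quartile scaling, against 48.39% with TMM. Krt7 and Cftr were limited by depth, at no more than 45 counts in a liver. No paired analysis was possible because the labels give mouse identifiers that do not pair control with *Usp39*-HKO mice.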
